A study of Mus musculus with 12 samples.

Results

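Expression of 9 genes of the noradrenaline system was followed through RNA sequencing of the mouse dorsal raphe (DR), the main serotonergic nucleus of the midbrain. They were chosen by symbol from 24421 genes and comprise 3 markers of noradrenergic neurons (Dbh, Slc6a2 and Phox2a) and 6 adrenergic receptors (Adra1a, Adra1b, Adra1d, Adra2a, Adra2c and Adrb1). All 9 were found, and 8 of them (all but Phox2a) passed the filter on low counts that left 15453 genes for testing. The libraries came from 12 mice of strain C57BL/6 x 129, 1 library per animal. The 4 controls were Sert Cre/+; Stat3 fl/+ and the 8 STAT3 KO were Sert Cre/+; Stat3 fl/fl littermates, with 2 females and 2 males among the controls and 4 of each among the STAT3 KO. Animals are named here by genotype and by the number in their label. Mice were single-housed and 8 to 16 weeks old when the experiments began. Both groups carry the Cre driver and at least 1 floxed allele, so the controls are not wild type. Cre acts in cells that express or have expressed the serotonin transporter, and it removes exons 18 to 20 of Stat3. A square of tissue under the aqueduct, cut from 4 consecutive coronal sections of 300 µm, gave the RNA, so each library mixes every cell type of that piece.

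Noradrenaline is made from dopamine by dopamine beta-hydroxylase, the product of Dbh, inside the vesicles of noradrenergic neurons. Slc6a2 encodes the plasma membrane transporter that takes it back up, and Phox2a encodes a homeodomain transcription factor needed for these neurons to form. Their largest brain group, the locus coeruleus, lies in the pons close to the DR and sends axons into it. RNA of the markers is held mainly in noradrenergic cell bodies, while receptor RNA is held in the many cells that respond to noradrenaline. Alpha-1 receptors couple to Gq and excite DR serotonergic neurons, alpha-2 receptors couple to Gi and restrain release and firing, and the beta-1 receptor couples to Gs.

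Between 24379588 and 29645210 reads were counted on genes per library, and 3 reads, the floor used for detection, correspond to 0.101 to 0.123 CPM, the read count scaled to a common library size. These limits cover counting error only. Stat3 itself stood at 64.7 to 67.9 CPM in controls and 62.7 to 70.1 CPM in STAT3 KO (log2 fold change -0.0077, SE 0.039, edgeR adjusted p = 0.992). A count over the whole gene takes in exons outside the deletion and cells without Cre, so it is a weak check of the labels. The tissue label was matched by the serotonergic genes Tph2, at 540 to 879 CPM, and Slc6a4, at 151 to 405 CPM. Control 4 had the highest sum of 5 forebrain excitatory markers (153 CPM, against 70.4 CPM in the next library). Cerebellar markers summed to 430 CPM in STAT3 KO 16 and 218 CPM in STAT3 KO 10, and choroid plexus markers to 227 CPM in STAT3 KO 8 and 221 CPM in STAT3 KO 16, against at most 93.8 and 11.5 CPM in controls.

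The markers varied far more between animals than the receptors did. Dbh spanned 0.506 to 24.7 CPM, a 48.9-fold range, and Slc6a2 spanned 0.675 to 29.997 CPM, a 44.5-fold range. The receptor ranges ran from 1.38-fold for Adra1b to 3.34-fold for Adra1d. The SD of log2 CPM over the 12 libraries was 1.78 for Dbh and 1.69 for Slc6a2, which ranked 14 and 15 among the 15453 tested genes, while the median gene had 0.12. Adra1d had an SD of 0.44, and the other 5 receptors had SDs of 0.14 to 0.23. In bulk tissue, fewer cells of a type and less RNA per cell cannot be told apart.

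**Figure D1:**
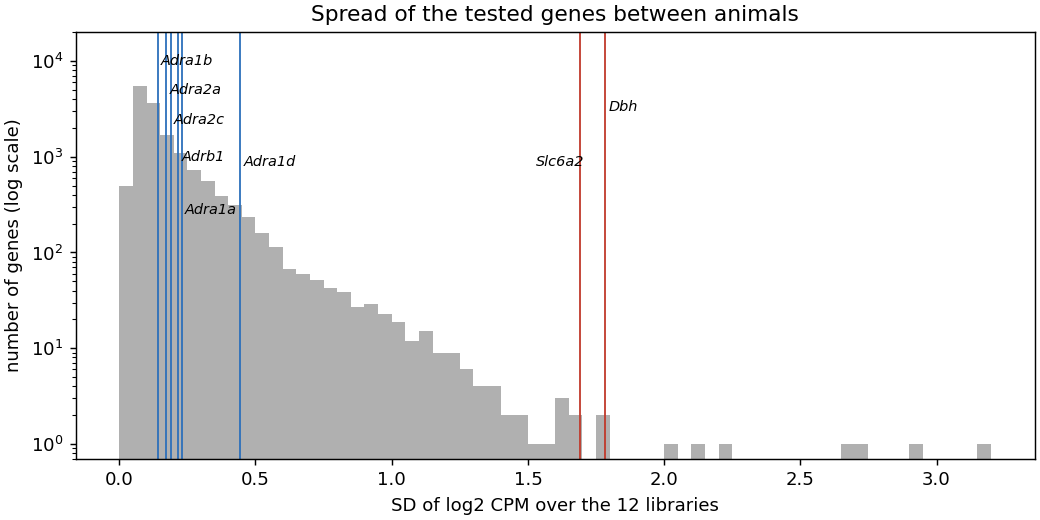
Histogram of the SD of log2 CPM over the 12 libraries (x axis) for the 15453 tested genes, with the number of genes on a log y axis. Red lines mark Dbh and Slc6a2, at 1.78 and 1.69, and blue lines mark the 6 receptors, at 0.14 to 0.44.

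Dbh (ENSMUSG00000000889, chr2:27165233-27183200, plus strand, GRCm38) had 0.598, 1.43, 7.95 and 8.18 CPM in controls 3, 11, 13 and 4. In the STAT3 KO it ran from 0.506 CPM in animal 15 through a median of 6.58 to 24.7 CPM in animal 14. Low and high animals occurred in both genotypes, and the control values lay inside the STAT3 KO range. From low to high, the order was STAT3 KO 15, control 3, STAT3 KO 5, control 11, STAT3 KO 6, 16 and 8, control 13, control 4, and STAT3 KO 7, 10 and 14. With 1 library per animal, neighbours in this order have no replicate error of their own. The lowest count, 15, and the highest, 675, were both above the 3-read floor.

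Because Phox2a is a homeodomain factor and Dbh is one of its known targets, the RefSeq promoter window of Dbh (250 bases before to 50 after the start, GRCm38.p6) was searched for the homeodomain core ATTA on both strands. A stretch with 2 of its 3 matches, at chr2:27165342-27165371 on the plus strand, lies 165 to 136 bases before the RefSeq start and is shown with the core in capitals. The gene model given above begins upstream of that start.
Dbh: catgtgtcATTAgtgccaATTAggggagat
A core this short is common, and 58.0% of 32851 windows hold it. The 6 members with windows had 7 in all, of which 3 held the core (Dbh, Adra1b and Adra2c). A longer homeodomain site, made of 2 such cores in opposite directions, was also searched. It was in 0 of these 7, that of Dbh included, and in 0.487% of all windows. The STAT motif TTCNNNGAA was in 0 of these 7 and in 8.30% of all windows.

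Slc6a2 (ENSMUSG00000055368, chr8:92960079-93001667, plus strand), the reuptake transporter, had 0.784, 2.12, 10.1 and 11.2 CPM in controls 3, 11, 13 and 4. The STAT3 KO ran from 0.675 CPM in animal 15 through a median of 6.55 to 29.997 CPM in animal 14. The animals at either end were those of Dbh, and the genotypes again overlapped. There were 0.933 to 2.06 Slc6a2 reads per Dbh read (median 1.29), a 2.21-fold range. This ratio was 1.36 ± 0.0956 (SD, n = 4) in controls and 1.29 ± 0.344 (SD, n = 8) in STAT3 KO. Its highest value, in STAT3 KO 5, rested on 64 and 31 reads.

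Phox2a (ENSMUSG00000007946, chr7:101818313-101822726, plus strand), the developmental regulator, was near the limit of detection. It had 1, 1, 7 and 6 reads in controls 3, 11, 13 and 4, and 1 to 26 reads in the STAT3 KO. In 4 of 12 libraries it was at or under 3 reads, and the 2 libraries with the most reads, STAT3 KO 10 and 14, also had the most Dbh. It overlaps Inppl1 on the other strand, and the strandedness of the counting is not given in the sources used here, so some of these reads may belong to Inppl1.

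**Figure D2:**
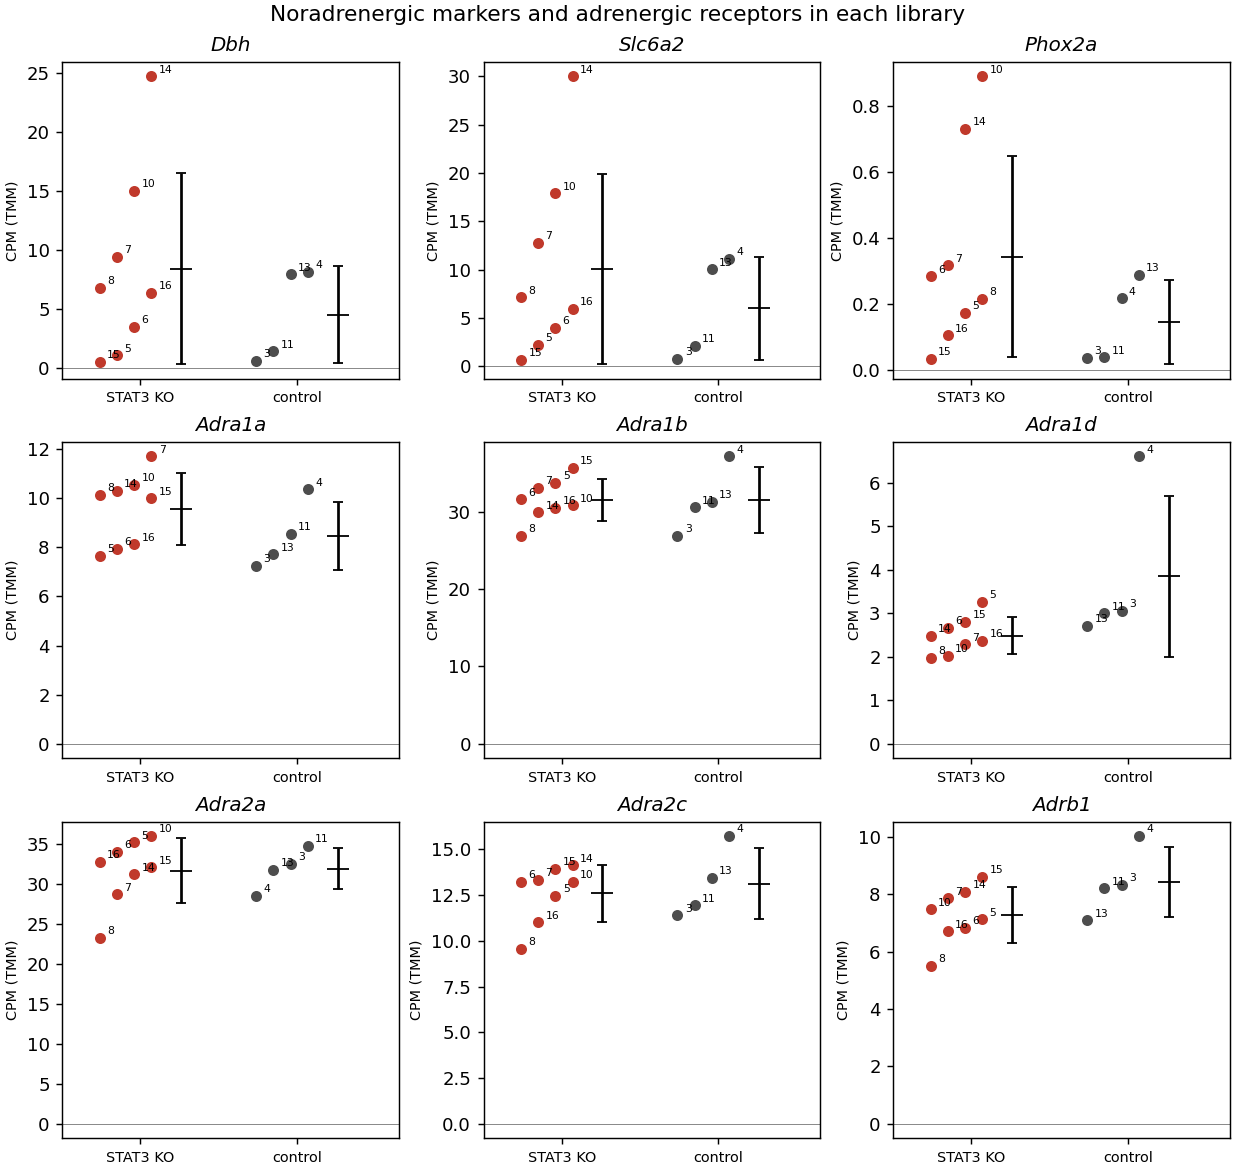
Expression of the 9 genes in CPM (y axes from 0) in each of the 8 STAT3 KO (red) and 4 control (grey) libraries, numbered by animal, with the mean and SD beside each group. Dbh and Slc6a2 run from under 1 CPM to 24.7 and 29.997 CPM, the receptors spread less, and control 4 stands above the rest for Adra1d at 6.62 CPM.

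The markers moved together. Pearson's r of log2 CPM over the 12 libraries was 0.99 between Dbh and Slc6a2 (Spearman's rho 0.99, permutation p = 1e-05, the smallest that 100000 resamples can give). It remained 0.98 without the 2 libraries farthest from the median of Dbh, and was 0.99 in the 8 STAT3 KO alone. For Phox2a, r was 0.86 with Dbh (rho 0.91, permutation p = 0.00023) and 0.88 with Slc6a2 (rho 0.92, permutation p = 0.00013). Without the 2 farthest libraries these values were 0.77 and 0.82. In all, 36 pairs of members were compared, and their p-values are not adjusted.

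Slc6a2 was the 1 gene of 15452 (0.00647%) whose expression followed Dbh at an adjusted p under 0.05 in edgeR's quasi-likelihood test. It rose by 0.95 log2 units per log2 unit of Dbh (SE 0.041, 95% confidence interval 0.86 to 1.04, adjusted p = 4.4e-09). Leaving out any 1 animal gave slopes of 0.93 to 1.0. Without control 13 the test called 9 genes, and without STAT3 KO 15 it called 2, Slc6a2 and Nos1 (neuronal nitric oxide synthase). Slc6a2 was called in every one of these fits. For Phox2a, fitted without the filter on low counts, the slope was 0.74 (SE 0.13, adjusted p = 0.085).

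**Figure D3:**
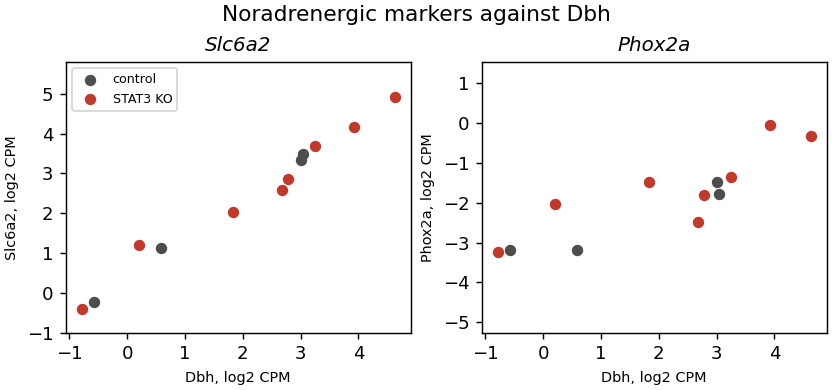
Slc6a2 and Phox2a (y axes, log2 CPM) against Dbh (x axis, log2 CPM), 1 point per library, controls in grey and STAT3 KO in red. Slc6a2 follows Dbh with r = 0.99 and Phox2a, at 1 to 26 reads, with r = 0.86.

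Among the other genes, the 10 most like the mean standardised level of the 3 markers were Nts (neurotensin, r = 0.93), Egflam (0.92), Nhlh2 (0.90), Sp9 (0.90), Wnt2 (0.89), Cckar (a cholecystokinin receptor, 0.88), Irx4 (0.87), Cxadr (0.85), Nos1 (0.85) and Pibf1 (0.84), as Pearson's r over 12 libraries. They were picked for this likeness, so the r values are a description. Their ranges were narrower than those of Dbh and Slc6a2, from 1.17-fold for Cxadr to 5.55-fold for Sp9. Nos1 ran from 68.5 CPM in control 3 to 213 CPM in STAT3 KO 14. Markers of neighbouring cells also differed between these animals. The sum of 3 cholinergic markers was highest in STAT3 KO 14 and 10, at 186 and 156 CPM, followed by 152 CPM in control 11, where Dbh was 1.43 CPM, and lowest in STAT3 KO 6, at 59.3 CPM. Of these 3 markers 1 had an unadjusted p under 0.05 for the slope on Dbh, which 4.54% of all genes had, Chat (0.15, SE 0.052, edgeR adjusted p = 0.859). The sum of 4 dopaminergic markers was highest in control 3, at 449 CPM, and lowest in STAT3 KO 10, at 223 CPM. The cerebellar sums of STAT3 KO 14, 10 and 7, the libraries with the most Dbh, were 72.8, 218 and 79.4 CPM, those of STAT3 KO 16 and control 3 were 430 and 93.8 CPM, and the remaining 7 libraries had 19.2 to 27.4 CPM. At the same threshold, 2 of 5 cerebellar markers passed for the slope on Dbh, Car8 (0.44, SE 0.18) and Pcp2 (0.80, SE 0.36), both with an edgeR adjusted p of 0.999. All 5 cerebellar slopes were positive. Of 6 serotonergic markers 1 passed without adjustment, Slc6a4, with a negative slope (-0.15, SE 0.038, edgeR adjusted p = 0.370), and the serotonergic sum was lowest in STAT3 KO 14, at 787 CPM. Of 4 astrocyte markers 1 passed without adjustment, Slc1a3, a glutamate transporter (0.078, SE 0.031, edgeR adjusted p = 0.999). The part of these cells in the marker values was not tested.

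No receptor passed the test of following Dbh. At an unadjusted p under 0.05 the slope test called 0 of 6 receptors, where 4.54% of all genes were called. The receptor slopes lay between -0.027 for Adra1d and 0.067 for Adra1a per log2 unit of Dbh. The slope of Adra1a had an SE of 0.032 and an edgeR unadjusted p of 0.053 (adjusted p = 0.999). Leaving out 1 animal gave Adra1a slopes of 0.052 to 0.11. The smallest edgeR unadjusted p among these fits was 0.0047, and the smallest adjusted p was 0.538. For Adra1d these slopes ran from -0.093, without control 4, to 0.00064. Its smallest edgeR unadjusted p was 0.015, and its smallest adjusted p was 0.895. The 0 of 6 therefore holds for the fit to all 12 libraries. The highest upper bounds of the 95% confidence intervals were 0.13 for Adra1a and 0.14 for Adra1d, below the lower bound of 0.86 for Slc6a2. Of the 18 pairs of a marker and a receptor, 0 had a permutation p under 0.05 for Pearson's r, which ran from -0.29 to 0.53. Adra1a had the highest values, with r = 0.53 to Slc6a2 (permutation p = 0.078, and r = 0.68 with permutation p = 0.035 without the 2 libraries farthest from the median of Slc6a2). Its r to Dbh was 0.52 (permutation p = 0.081) and its Spearman's rho 0.71 (permutation p = 0.013). Without the 2 libraries farthest from the median of Dbh, its r to Dbh was 0.65 (permutation p = 0.048). For Adra1d, r with Dbh was -0.21 over all libraries and -0.70 in the 8 STAT3 KO alone (permutation p = 0.0496).

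**Figure D4:**
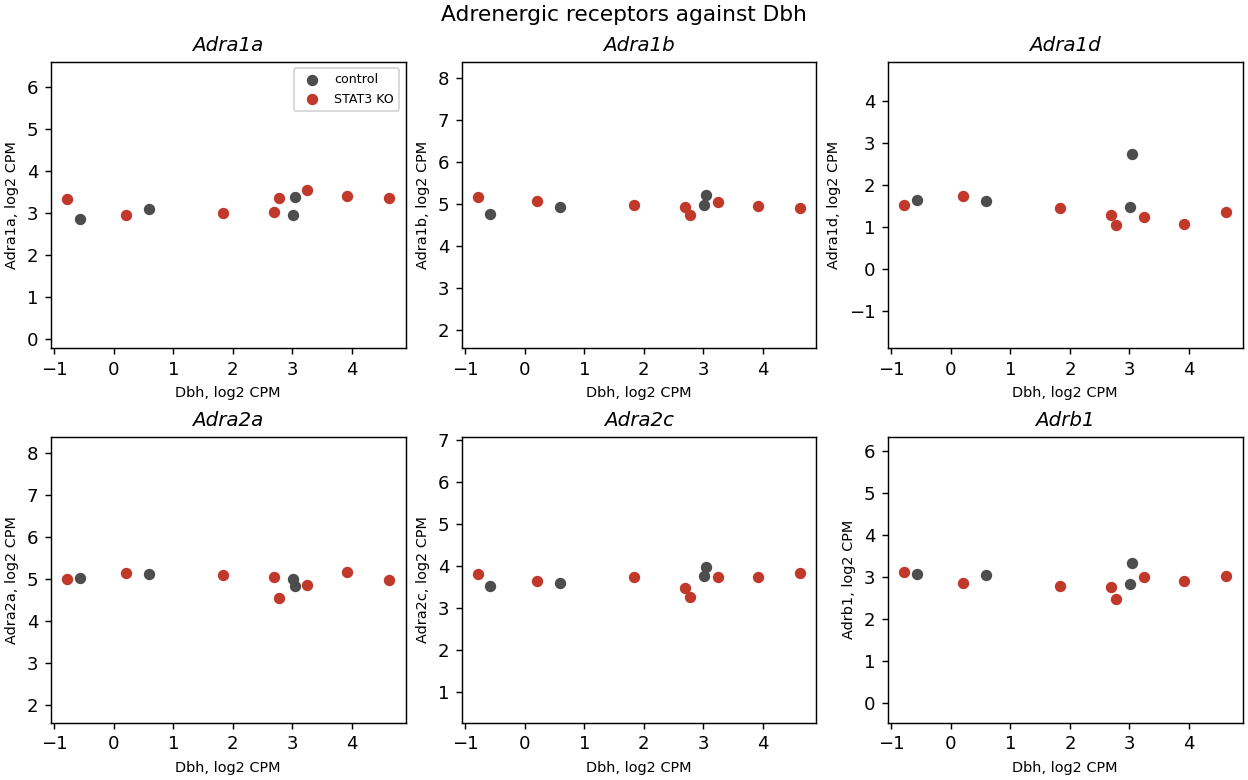
The 6 receptors (y axes, log2 CPM, all of the same height in log2 units) against Dbh (x axis, log2 CPM), 1 point per library, controls in grey and STAT3 KO in red. Slopes on Dbh lie between -0.027 and 0.067, and control 4 stands above the other libraries for Adra1d.

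Per kilobase of exon, the alpha-1 receptor Adra1b had the highest level, 9.31 ± 0.911 CPM per kb (SD, n = 12). The alpha-2 receptor Adra2a, the main autoreceptor, followed with 6.57 ± 0.734, and Adra2c with 3.71 ± 0.473 CPM per kb. The 1 beta receptor among the 9 genes, Adrb1, had 2.26 ± 0.338, Adra1d had 1.55 ± 0.645 and Adra1a had 1.05 ± 0.168 CPM per kb. The means of Adra1d and Adra1a differ by less than the SD of Adra1d. The markers had 2.65 ± 2.62 CPM per kb for Dbh, 1.39 ± 1.36 for Slc6a2 and 0.137 ± 0.133 for Phox2a, with SDs close to their means.

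Adra1a (ENSMUSG00000045875, chr14:66635251-66771168, plus strand) had 7.25, 7.71, 8.55 and 10.4 CPM in controls 3, 13, 11 and 4 and 7.65 to 11.7 CPM (median 10.1) in STAT3 KO. Adra1b (ENSMUSG00000050541, chr11:43774606-43901210, minus strand) had 26.9, 30.6, 31.2 and 37.2 CPM in controls 3, 11, 13 and 4 and 26.8 to 35.7 CPM (median 31.2) in STAT3 KO. The genotypes overlapped for both genes, and control 3 was the lowest control for each.

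Adra2a (ENSMUSG00000033717, chr19:54044151-54048982, plus strand) had 28.5, 31.8, 32.5 and 34.8 CPM in controls 4, 13, 3 and 11 and 23.3 to 36.03 CPM (median 32.4) in STAT3 KO. Adra2c (ENSMUSG00000045318, chr5:35278319-35281763, plus strand) had 11.4, 11.9, 13.4 and 15.7 CPM in controls 3, 11, 13 and 4 and 9.57 to 14.1 CPM (median 13.2) in STAT3 KO. Adrb1 (ENSMUSG00000035283, chr19:56722199-56733113, plus strand) had 7.09, 8.21, 8.33 and 10.03 CPM in controls 13, 11, 3 and 4 and 5.50 to 8.60 CPM (median 7.30) in STAT3 KO. Again the groups overlapped for each gene.

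Single libraries set most receptor extremes. STAT3 KO 8 was the lowest library for 5 of 6 receptors, all but Adra1a, and control 4 was the highest for 4 of 6 (Adra1b, Adra1d, Adra2c and Adrb1). STAT3 KO 8 was also the lowest for 8 of 14 genes of receptor signalling, whose sum was 4361 CPM there and 4798 CPM in the next lowest library. The share of all genes with these libraries as extremes is not given here, so these counts only describe the listed genes. STAT3 KO 8 had the highest choroid plexus sum and control 4 the highest forebrain sum, and the part of these cells in the receptor values was not tested. Among the 15 pairs of receptors, 5 had a permutation p under 0.05, with r from 0.58 to 0.77 and the highest for Adra1b with Adra2c. None of these 5 kept a p under 0.05 without the 2 libraries farthest from the median of the first gene of the pair. In the 8 STAT3 KO alone, r between Adra2c and Adrb1 was 0.92 (permutation p = 0.00087). There, Adra1b had r = 0.76 with Adrb1 (permutation p = 0.032) and 0.71 with Adra1d (permutation p = 0.047). For Adra1b with Adra2c r was 0.69 (permutation p = 0.066), and for Adra1d with Adrb1 it was 0.40 (permutation p = 0.33).

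No member passed the genotype test. At an adjusted p under 0.05, edgeR called 0 of the 8 tested members and 0 (0%) of 15453 genes, and at an unadjusted p under 0.05 edgeR called 1 member, Adra1d, and 1184 genes (7.66%). At an adjusted p under 0.05, DESeq2 called 4 of these 15453 genes and, without the filter on low counts, 6 of 20056, with 0 members among them in either case. Between STAT3 KO and control, Dbh differed by 0.89 log2 units (SE 0.80, 95% confidence interval -0.80 to 2.58, adjusted p = 0.859) and Slc6a2 by 0.74 (SE 0.77, interval -0.90 to 2.38, adjusted p = 0.885). Both intervals are wide enough to hold a change of either sign. Leaving out 1 animal gave 0.43 (without STAT3 KO 14) to 1.36 (without control 4) for Dbh and 0.27 to 1.24, without the same animals, for Slc6a2. The control mean of Dbh was 4.54 ± 4.09 CPM (SD, n = 4) and the STAT3 KO mean 8.42 ± 8.09 CPM (SD, n = 8), with 5 of 8 STAT3 KO above the control mean. Phox2a, without the filter, had a log2 fold change of 1.23 (SE 0.72, edgeR adjusted p = 0.784).

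The receptor intervals were narrower. For Adra1b the difference was 0.0020 (SE 0.081, interval -0.17 to 0.17), for Adra2a -0.010 (SE 0.094, interval -0.21 to 0.19) and for Adra2c -0.058 (SE 0.11, interval -0.29 to 0.17). For Adra1a it was 0.17 (SE 0.13, interval -0.09 to 0.44) and for Adrb1 -0.21 (SE 0.11, interval -0.45 to 0.03, edgeR adjusted p = 0.705). In all, 7 of 8 STAT3 KO lay below the control mean of Adrb1, which includes the highest library, control 4. Without control 4 the difference was -0.11 for Adrb1 and 0.29 for Adra1a, and without control 3 that of Adra1a was 0.11. The median over the 8 tested members was -0.0040, beside -0.0011 over all genes.

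Adra1d (ENSMUSG00000027335, chr2:131545850-131562283, minus strand), the third alpha-1 receptor, had 2.72, 3.01, 3.06 and 6.62 CPM in controls 13, 11, 3 and 4, and 1.98 to 3.27 CPM (median 2.43) in STAT3 KO. Control 4 had more than any other library, and the other 3 controls lay inside the STAT3 KO range. All 8 STAT3 KO were below the control mean. The log2 fold change was -0.63 (SE 0.21, interval -1.09 to -0.18, edgeR adjusted p = 0.615), and the exact two-sided permutation test over the 495 splits of the animals gave a difference of -0.54 and p = 0.020. By that test 1097 genes (7.10%) had p under 0.05, and 69 genes (0.447%) had groups that did not overlap in CPM, 0 of the 9 members among them. Without control 4 the fold change was -0.23, and the exact permutation test gave a difference of -0.25 and p = 0.115. The forebrain markers of control 4 were also the highest, and their part in this value was not tested. Adra1d overlaps the antisense gene Gm14285, which was not analysed here.

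**Figure D5:**
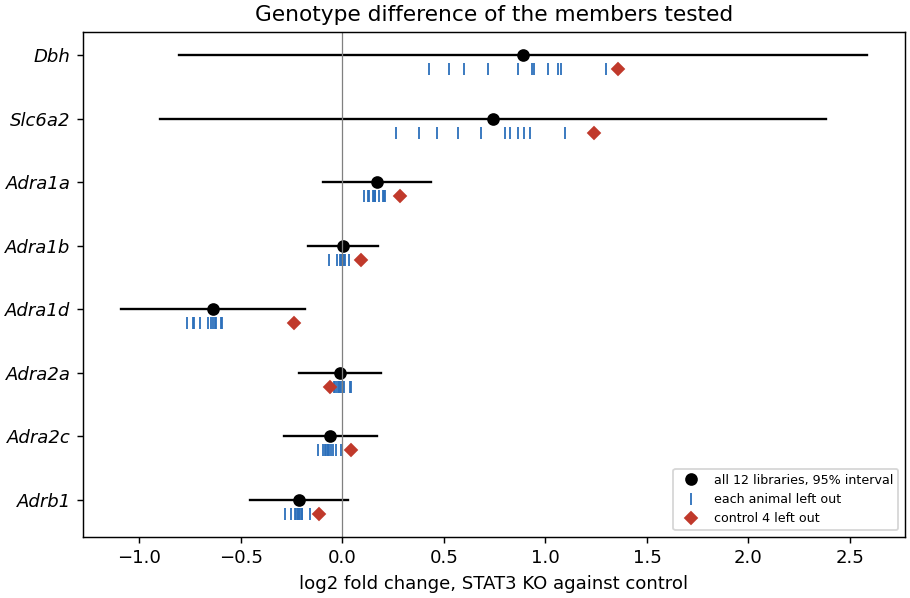
Log2 fold change of STAT3 KO against control (x axis) for the 8 tested members, with the 95% confidence interval over all 12 libraries (black), the value without each animal in turn (blue) and without control 4 (red). The intervals of all but Adra1d hold 0, and Adra1d moves from -0.63 to -0.23 without control 4.

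No member passed the test of sex. At an adjusted p under 0.05 edgeR called 0 of 8 members and 13 of 15453 genes (0.0841%), and at an unadjusted p under 0.05 it called 0 members and 1112 genes (7.20%). Dbh had 6.74 ± 5.43 CPM (SD, n = 6) in females and 7.52 ± 8.94 CPM (SD, n = 6) in males, and the receptor differences of male against female ran from -0.10 to 0.26 log2 units. The genotype by sex interaction called 0 members and 0 genes (0%) at an adjusted p under 0.05, and 0 members and 848 genes (5.49%) without adjustment. The interaction estimates of the 8 members had a median of -0.24, beside 7.8e-05 over all genes, and Adra1d was furthest from 0 at -0.74 (SE 0.39, edgeR adjusted p = 0.930). All 8 were below 0, but leaving out 1 animal turned the sign for 4 of them (Dbh, Slc6a2, Adra2a and Adra2c). Without control 4 the estimate for Adra1d was -0.060, from a fit with 1 male control, which is assumed to vary like the other animals.

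Other genes of noradrenaline handling were not called for genotype or for Dbh at an adjusted p under 0.05. Of 7 genes of synthesis and vesicle loading, 1 passed for genotype without adjustment (beside 7.66% of all genes), Cyb561, which supplies electrons for dopamine beta-hydroxylase (-0.14, SE 0.060, edgeR adjusted p = 0.633). Th, the rate-limiting tyrosine hydroxylase, is shared with dopaminergic neurons. It had 86.8 CPM in control 3, where Dbh was among the lowest, and 24.1 CPM in STAT3 KO 10, where Dbh was among the highest. Its slope on Dbh was -0.20 (SE 0.047, edgeR adjusted p = 0.326). The dopaminergic markers also had negative slopes on Dbh in 4 of 4 genes, of which 3 passed without adjustment (beside 4.54% of all genes), such as Slc6a3, the dopamine transporter (-0.30, SE 0.097, edgeR adjusted p = 0.766).

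Pnmt, which makes adrenaline, had 0 to 3 reads in every library. Of the remaining receptors listed, Adra2b had 0 to 3 reads, and Adrb3 had 0.740 to 1.57 CPM with a genotype difference of -0.17 (SE 0.19, edgeR adjusted p = 0.893). The clearance genes Maoa, Maob, Slc22a3 and Slc29a4 had genotype differences between -0.054 and 0.10. Of the 5 clearance genes listed, 1 passed for the slope on Dbh without adjustment (beside 4.54% of all genes), Maoa (0.029, SE 0.011, edgeR adjusted p = 0.999). Among 14 genes of receptor signalling 1 passed for genotype without adjustment (beside 7.66% of all genes), Rgs4, a brake on Gq and Gi signalling (-0.26, SE 0.082, edgeR adjusted p = 0.615), and its highest library was again control 4, at 135 CPM against 101 CPM in control 13.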

How the data were processed

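RNA of the DR was sequenced by the authors from 12 mice with the NEBNext Ultra II kit, as single reads of 75 bp, from RNA with integrity numbers above 7.0. The submitters' processing notes name bcl2fastq, STAR 2.5.0b, DESeq2 1.6.3 and mm10. The deposited counts are raw reads per gene symbol, 1 table per animal. The counting tool, annotation and strandedness are not given in the sources used here. Of each library's reads, 13.4 to 15.3% had no feature and 0.507 to 0.562% were ambiguous, and these rows were left out.

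CPM and log2 CPM (prior count 2) used TMM factors of 0.985 to 1.01. Genes were kept by filterByExpr (count of 10, total of 15). Genotype, sex, their interaction and the slope on log2 CPM of Dbh were tested across all genes with edgeR 4.0.16 (quasi-likelihood, Benjamini-Hochberg, threshold 0.05), and genotype also with the exact permutation test, whose smallest p is 0.00202. DESeq2 1.42.0 and limma 3.58.1 served as alternatives. The study itself used DESeq2 and reported more genes as differing by genotype than either DESeq2 fit called here. The reason for this difference was not tested. Scripts were tested on simulated data. The labels give no batch. Gene positions and exon lengths come from a GRCm38 annotation. Named genes were the 9 members, fixed lists of pathway and cell type genes, and the 10 genes most like the markers; some listed genes are not reported here. Members and lists were chosen with earlier results of these data known.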

Additional observations from a re-analysis of the deposited data

Results flagged for a closer look

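Of 36 groups of values examined (members, marker sums and the ratio of Slc6a2 to Dbh, in each genotype), 4 held a sample far from the others, where chance gives about 1.8. The groups are not independent, since Dbh, Slc6a2 and their ratio share values, so the chance number is a rough guide only. In controls, Adra1d was highest in control 4, at a log2 CPM of 2.74 against 1.65 in the nearest, a gap of 0.867 of the group's range. The ratio of Slc6a2 to Dbh was highest in STAT3 KO 5, at a log2 of 1.05 against 0.44, a gap of 0.526 of the range. The cholinergic sum was lowest in STAT3 KO 6, at 5.89 against 6.93 on the log2 scale (gap 0.630), a library in which Dbh lay in the middle of the order. The cerebellar sum was highest among controls in control 3, at 6.55 against 4.77 (gap 0.880), a library with the second lowest Dbh.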

How the results depend on the processing

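The count of genes called for genotype was 6 with DESeq2, which was run on 20056 genes without the filter on low counts. On the 15453 filtered genes, an alternative chosen after seeing the data, DESeq2 called 4 (Nrn1, Rasgef1b, Stac2 and Zfp956, named after their values were seen). The count was 0 to 1 when 1 animal was left out, the 1 being Slc17a6 without control 4, and 0 of these were members. For the interaction the leave-one-out counts ran from 0 to 37, the 37 without control 11, with 0 members called. Leaving out any control leaves 1 control of that sex, assumed there to vary like the other animals. Those for the slope on Dbh ran from 1 to 9, and for sex from 10 to 13. Pairs of members with a permutation p under 0.05 fell from 8 to 5 without the 2 farthest libraries. The 3 pairs of markers stayed and the 5 pairs of receptors were lost. Adra1a entered with Dbh (permutation p = 0.048) and with Slc6a2 (permutation p = 0.035). The r of Dbh with Adra2c became -0.054 in STAT3 KO alone, and that with Adrb1 became 0.12 without the 2 farthest libraries. The sign of some values turned when 1 animal was left out. For genotype these ranged from -0.063 to 0.095 for Adra1b, -0.058 to 0.044 for Adra2a and -0.12 to 0.044 for Adra2c. In the permutation test they ranged from -0.028 (without control 3) to 1.21 for Slc6a2, whose value over all animals was 0.69, -0.065 to 0.090 for Adra1b, -0.071 to 0.043 for Adra2a and -0.12 to 0.034 for Adra2c. For sex they ranged from -0.67 to 0.52 for Dbh, -0.71 to 0.51 for Slc6a2 and -0.021 to 0.087 for Adra1b. For the interaction they ranged from -2.86 to 1.70 for Dbh, -2.99 to 1.43 for Slc6a2, -0.26 to 0.041 for Adra2a and -0.31 to 0.074 for Adra2c. For the slope on Dbh they ranged from -0.029 to 0.015 for Adra1b and -0.093 to 0.00064 for Adra1d. The cause of these changes was not tested. With 4 controls, 1 animal moves a group mean strongly, and Phox2a, Pnmt and Adra2b were too shallow for firm values. No paired analysis was possible because each animal number occurs in 1 genotype alone.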
